A study of Homo sapiens with 2 samples.

Results

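The genes described here are 10 epithelial keratins, KRT8, KRT18, KRT7, KRT19, KRT20, KRT23, KRT10, KRT80, KRT81 and KRT86, taken by name from the deposited gene count table. They were chosen by their counts in these same libraries, so their differences are given as a description. They are 10 of the 55 keratin genes and of the 58735 genes that the table lists, and they held 99.4% of all keratin counts in MAEL WT cells and 99.9% in MAEL KO cells. RNA was sequenced from PLC8024 cells, an epithelial hepatoma line also called PLC/PRF/5 or Alexander cells. One group is wildtype for MAEL and was not treated. The other carries a MAEL knockout made with a Cas9 and sgRNA plasmid, and per the study's methods sorted cells were grown as single clones, so the knockout cells may descend from 1 cell. Each group has 1 library, so no difference has a replicate check and no p-value is given.

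Keratins are the intermediate filament proteins of epithelial cells. A filament forms from pairs of an acidic type I and a basic type II keratin, so each cell type expresses matched partners. Hepatocytes use the type II keratin KRT8 with the type I keratin KRT18 and little else, bile duct cells add KRT7 and KRT19, and KRT81 and KRT86 are type II keratins of the hair cortex.

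The library totals were 19904136 counts for MAEL WT and 20833332 for MAEL KO. MAEL itself had 1 count in MAEL WT and 0 in MAEL KO, so its RNA was nearly absent in MAEL WT too and does not check the labels. The paper picked PLC8024 as the line with the highest MAEL level, which it shows as protein by Western blot. Fold changes below are those of MAEL KO over MAEL WT after TMM normalization, with 1 added to both normalized counts on the log2 scale. The 95% intervals were derived from Clopper-Pearson limits for the fraction of each gene's reads found in MAEL KO. They cover counting error only, since each group has 1 library. They also take reads as independent molecules, which reads are not, so they may be too narrow. A level of 3 counts or fewer is treated as being at the floor of detection, which is 0.151 CPM, reads scaled to the library total, in MAEL WT and 0.144 CPM in MAEL KO.

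KRT81 and KRT86 are near-identical neighbours on chromosome 12 of GRCh38. KRT81 (ENSG00000205426) lies from 52285913 to 52291534 on the minus strand, inside the span of KRT86 (ENSG00000170442), which runs from 52249300 to 52309163 on the plus strand. Their coding sequences in GENCODE 29 were 94.2% identical over 1457 aligned bases, with 1 identical run of 605 bases. The first 60 bases of that run, from coding position 61 of both genes, are shown because a read that lies within it fits both genes equally.
KRT81 and KRT86, shared: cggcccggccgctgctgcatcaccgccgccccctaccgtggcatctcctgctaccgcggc
The 60 bases from coding position 1249 to 1308 hold the most differences, 14, and are shown because reads from them tell the genes apart. Capitals mark the bases that differ.
KRT81: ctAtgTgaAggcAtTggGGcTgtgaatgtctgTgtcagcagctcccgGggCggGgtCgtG
KRT86: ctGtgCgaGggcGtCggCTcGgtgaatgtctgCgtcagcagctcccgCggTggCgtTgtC
Of all windows of 100 bases in the main KRT81 transcript, 30.3% also occurred in a transcript of another gene, with KRT86 and the pseudogene KRT87P as the partners. The share was 28.3% for KRT86. How reads that match both genes were counted is not given in the sources used here, so the split between the 2 genes is uncertain.

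The 2 hepatocyte keratins were higher in MAEL KO. KRT81, KRT86, KRT7, KRT19, KRT20 and KRT80 had between 13 and 368 counts in MAEL WT and were at the floor of detection in MAEL KO, with between 0 and 3 counts. KRT10 was lower but stayed abundant, and KRT23 was higher together with KRT8 and KRT18. The plot of read counts shows the 6 keratins at that floor.

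**Figure D1:**
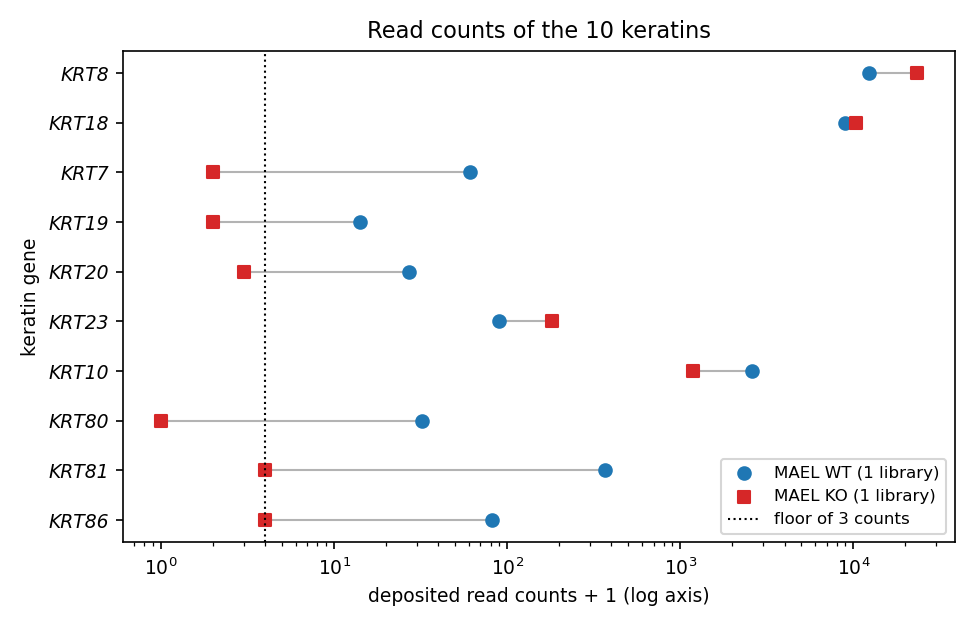
Deposited read counts plus 1 on a log axis for each of the 10 keratins, with MAEL WT as circles and MAEL KO as squares and 1 library each. KRT8, KRT18 and KRT23 lie further right in MAEL KO, KRT10 lies further left, and the other 6 sit on or left of the dotted line at 3 counts in MAEL KO.

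KRT8 (ENSG00000170421, chromosome 12 from 52897187 to 52949954, minus strand) is the type II partner of the hepatocyte pair. It had 12248 counts in MAEL WT and 23308 in MAEL KO. The log2 fold change was 1.14 (95% interval 1.11 to 1.17), or 2.20-fold. KRT18 (ENSG00000111057, chromosome 12 from 52948871 to 52952901, plus strand), its type I partner, lies beside KRT8 although most type I genes are on chromosome 17. It had 8981 counts in MAEL WT and 10320 in MAEL KO. Its log2 fold change was 0.41 (95% interval 0.37 to 0.45), or 1.33-fold, and its interval does not meet that of KRT8. Scaling by total counts in place of TMM moved the median over every tested gene from -0.04 to -0.31 and gave 0.86 for KRT8 and 0.13 for KRT18. A change of scaling shifts all genes by nearly the same amount, so the distance from that median is nearly fixed in advance. It was 1.18 and 1.17 for KRT8 and 0.45 and 0.44 for KRT18, which does not check the scaling.

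The balance within the pair shifted toward KRT8. The ratio of KRT8 to KRT18 was 1.66 times higher in MAEL KO than in MAEL WT (95% interval 1.60 to 1.72, counting error only), a value that no choice of gene length can change. Which of the pair was more abundant does depend on that choice. On the deposited FPKM scale, which divides counts by the listed gene length, the ratio was 0.638 in MAEL WT (95% interval 0.621 to 0.655) and 1.06 in MAEL KO (95% interval 1.03 to 1.08). The table lists 6881 bases for KRT8, the union of all its exons, whereas its shortest principal transcript in GENCODE 29 has 1755 bases, against 3218 and 1420 for KRT18. With these transcript lengths the ratio was 1.10 in MAEL WT and 1.83 in MAEL KO, so KRT8 was the more abundant partner in both. The plot of the ratio by length term shows how its level moved with the length, by the same factor in both libraries.

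**Figure D2:**
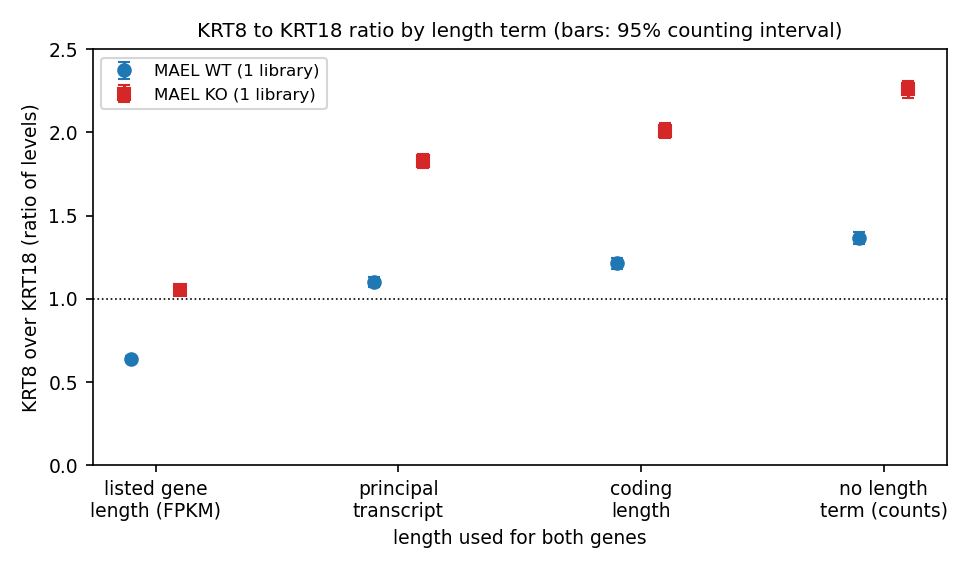
Ratio of KRT8 to KRT18 in each library (1 each) with 4 choices of length, and bars for the 95% counting interval, which are mostly hidden by the points. The ratio in MAEL WT goes from 0.638 with the listed gene length to 1.36 with no length term, and that in MAEL KO from 1.06 to 2.26.

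Reads near the KRT8 and KRT18 boundary carry a further limit. The exons of the 2 genes share 525 bases on opposite strands, 16.3% of the KRT18 exon bases and 7.63% of those of KRT8, and whether the counting used strand is not given in the sources used here. The counts of 50 KRT8 pseudogenes summed to 209 in MAEL WT and 153 in MAEL KO, or 1.71% and 0.656% of the KRT8 counts. For the 67 KRT18 pseudogenes the sums were 42 and 23. Adding them left both fold changes within their intervals.

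KRT81, one of the hair cortex keratins, had the largest difference among the 10. It went from 368 counts in MAEL WT to 3 in MAEL KO, a log2 fold change of -6.34 (95% interval -9.01 to -5.17). Its abundance in MAEL WT was 106 times that in MAEL KO, with a counting interval of 36.0 to 516. By log2 fold change, 0.0391% of all tested genes lay lower. KRT86 went from 81 counts to 3, a log2 fold change of -4.17 (95% interval -6.85 to -2.95), with a ratio of 23.3 (counting interval 7.71 to 116). Summed, which leaves out how shared reads were split, they went from 449 counts to 6, a log2 fold change of -5.81 (95% interval -7.47 to -4.88). KRT86 made up 18.04% of the summed counts in MAEL WT (95% Clopper-Pearson interval 14.6% to 21.9%), and with 6 counts in MAEL KO no shift in its share was detectable there.

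The biliary keratins KRT7 and KRT19 were scarce in MAEL WT and at the floor in MAEL KO. KRT7 (ENSG00000135480, chromosome 12 from 52232520 to 52252186), a type II keratin of duct and glandular epithelia, had 60 counts against 1. Its log2 fold change was -4.78 (95% interval -11.02 to -3.16). KRT19 (ENSG00000171345, chromosome 17 from 41523617 to 41528308), a type I keratin of duct cells and liver progenitors, had 13 counts against 1. Its log2 fold change was -2.66, with a wide interval of -8.90 to -0.76 that takes in changes smaller than the threshold of 2 used here. Both genes lay under 1 FPKM even in MAEL WT.

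KRT20 and KRT80 showed the same pattern from a low start. KRT20 (ENSG00000171431, chromosome 17), a type I keratin of intestinal and bladder epithelium, had 26 counts in MAEL WT and 2 in MAEL KO. Its log2 fold change was -2.999 (95% interval -6.61 to -1.49). KRT80 (ENSG00000167767, chromosome 12), a type II keratin widely found in epithelia, had 31 counts in MAEL WT and 0 in MAEL KO. Against the floor of 3 counts in the MAEL KO library, KRT80 was at least 8.93-fold lower, a value that leaves out counting error in MAEL WT. With counting error in both libraries the limit was 6.84-fold, or -2.77 on the log2 scale.

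KRT10 and KRT23 are type I keratins that stayed well above the floor in both libraries and differed in opposite directions. KRT10 (ENSG00000186395, chromosome 17 from 40818117 to 40822595), known from the upper layers of the epidermis, had 2583 counts in MAEL WT and 1177 in MAEL KO. Its log2 fold change was -0.92 (95% interval -1.02 to -0.82), a level 1.90 times higher in MAEL WT, and with total counts it was -1.20. KRT23 (ENSG00000108244, chromosome 17 from 40922696 to 40937634), which is found in gut and diseased liver epithelium, had 89 counts in MAEL WT and 181 in MAEL KO. Its log2 fold change was 1.22 (95% interval 0.86 to 1.62), or 2.35-fold.

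**Figure D3:**
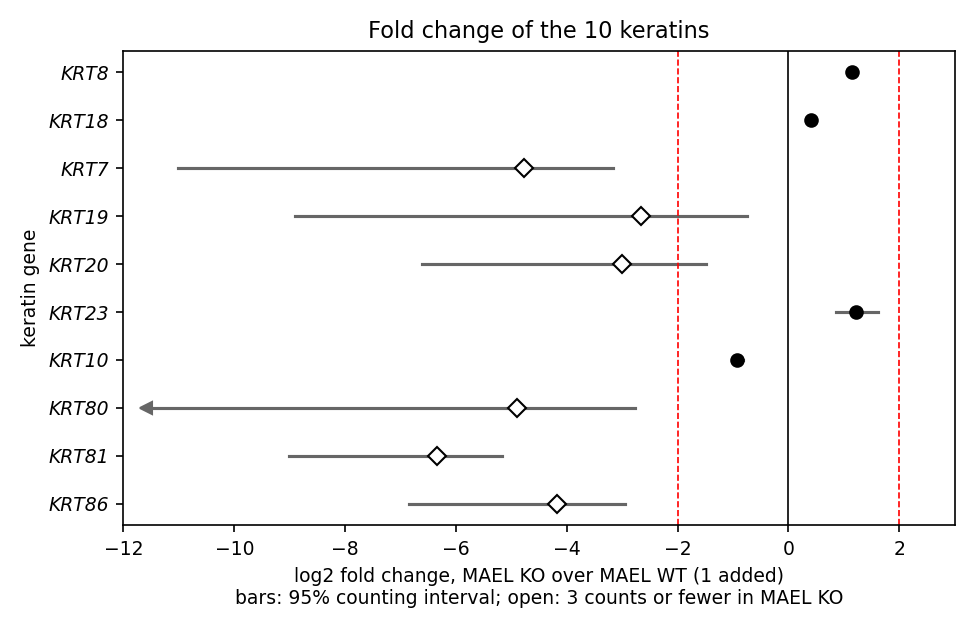
Log2 fold change of MAEL KO over MAEL WT (1 added) for each keratin, with 95% counting intervals as bars, open diamonds where MAEL KO had 3 counts or fewer, and dashed lines at -2 and 2. The intervals of KRT81, KRT86, KRT7 and KRT80 end left of -2, those of KRT19 and KRT20 cross it, and the arrow marks an interval with no lower end.

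By the study's threshold of 2 on the log2 scale, 6 of the 10 keratins were lower in MAEL KO and 0 were higher, a count from fold size alone. The count was 5 with 5 in place of 1 added, where KRT19 was at -1.49, and against the floor of 3 counts KRT19 was 3.75-fold lower, which is short of the threshold. Of the 17887 genes with at least 10 counts in 1 library, 5.64% were lower and 2.16% higher past that threshold. The 10 genes were chosen with these values known, so nothing is read from that contrast. At a threshold of 1, KRT8 and KRT23 were higher, as were 10.2% of the tested genes, but with total counts they were at 0.86 and 0.95 and neither passed. The median log2 fold change of the 10 was -2.83, or -2.41 with the 6 genes at the floor set to their bound. The interval lay wholly below -2 for 4 of the 6, KRT7, KRT80, KRT81 and KRT86. All 10 passed the filter on counts, but these 6 passed it through MAEL WT alone. Among tested genes with a mean normalized count under 50, where 5 of the 6 lie, 14.2% were lower past the threshold. Between 50 and 500, the range of KRT81 and KRT23, it was 4.38%. From 500 upward, where KRT8, KRT18 and KRT10 lie, it was 0.787%.

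The order of the keratins by level depends on the length used. By deposited FPKM, with the listed gene length, KRT18 led in MAEL WT at 127.6 (95% Poisson interval 125.0 to 130.3). KRT8 at 81.4 and KRT10 at 55.1 followed. KRT81 came next at 8.72, then KRT86 at 1.55 and KRT23 at 1.40, whose intervals overlap. On that scale KRT7 at 0.670 and KRT20 at 0.644 did not differ beyond counting error, nor did KRT80 at 0.326 and KRT19 at 0.254. With principal transcript lengths and TMM library sizes, the order in MAEL WT changed. KRT8 led at 318.6 before KRT18 at 288.8, and KRT23 at 2.04 lay before KRT86 at 1.77. KRT7 was then at 1.56 and KRT20 at 0.683, from 60 and 26 counts, and KRT19 at 0.427 lay before KRT80 at 0.367. By deposited FPKM in MAEL KO the order was KRT8 at 178.7, KRT18 at 169.2, KRT10 at 28.96 and KRT23 at 3.29. The other 6 were at or below 0.0821 FPKM there and have no order.

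KRT8 and KRT18 made up more of the keratin pool in MAEL KO. All keratin genes took 0.124% of the counts in MAEL WT and 0.168% in MAEL KO. Of the summed keratin FPKM, KRT8 and KRT18 held 74.9% in MAEL WT and 91.3% in MAEL KO. KRT10 held 19.7% and 7.60%, and KRT81 with KRT86 held 3.68% and 0.0389%. The KRT10 share depends on the length term, and was 10.5% and 3.36% by counts and 8.18% and 2.61% of the 10 keratins' sum per principal transcript. KRT7 with KRT19 held 0.331% and 0.00931%. By counts, without the length term, the share of KRT8 and KRT18 was 86.2% (95% Clopper-Pearson interval 85.7% to 86.6%) in MAEL WT and 96.0% (95.8% to 96.2%) in MAEL KO.

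The other 45 keratin genes of the table were almost silent. Of these, 35 had 0 counts in both libraries, 10 had any count in MAEL WT and 3 had any in MAEL KO. The 3 with at least 10 counts in 1 library were KRT15, KRT83 and KRT222. KRT15, a type I keratin of basal and progenitor cells next to KRT19 on chromosome 17, went from 117 counts to 15, a log2 fold change of -2.68 (95% interval -3.64 to -1.97). KRT83, the third hair cortex keratin beside KRT81, went from 13 counts to 2, a log2 fold change of -2.05 (95% interval -5.68 to -0.35). It is 93.3% identical to KRT81 over the aligned coding bases. KRT222, a shortened keratin-like gene, went the other way from 8 counts to 24, at 1.67 (95% interval 0.59 to 3.16).

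Along the chromosome 12 cluster, the lower and the higher tested keratins lay at opposite ends. No keratin between these ends had enough counts to be tested. KRT80, KRT7, KRT86, KRT81 and KRT83 follow each other from 52168996 to 52321398, and all 5 were lower. All 5 had 3 counts or fewer in MAEL KO and passed the filter through MAEL WT alone. KRT81, KRT86 and KRT83 are close in sequence and may share reads, so the 5 may not be separate observations. KRT8 and KRT18 close the cluster at 52952901. On chromosome 17 the tested keratins did not lie in such blocks. KRT222 and KRT23 were higher, and KRT10, KRT20, KRT15 and KRT19 were lower, with KRT20 between KRT10 and KRT23.

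Desmosomes and hemidesmosomes anchor keratin filaments at the cell membrane. Of 25 desmosome, hemidesmosome and plakin genes 19 were tested, 0 passed the threshold in either direction, against 5.64% lower and 2.16% higher of all tested genes, and their median log2 fold change was -0.18 against -0.04 over all tested genes. DSP, the desmoplakin that ties keratins to desmosomes, went from 8219 counts to 10660 (0.59), and the desmosomal plaque genes JUP and PKP2 were at 0.86 and 1.26. The lowest were ITGB4 at -1.24, DSC3 at -0.93 and PKP3 at -0.85. PLEC, the plectin that links filaments, was at 0.39.

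Of 15 other intermediate filament genes 12 were tested, with a median of 0.10 that became -0.18 with total counts. NEFH, a neurofilament gene, was higher at 2.45 (95% interval 2.21 to 2.73), followed by the lamins LMNB1 at 1.98 and LMNB2 at 1.14. The muscle desmin DES, with 14 counts and 2, was at -2.15, and PRPH, the peripherin of peripheral neurons, with 19 counts and 1, at -3.17. GFAP followed at -1.25. VIM, the vimentin of mesenchymal cells, had 343 counts in MAEL WT and 368 in MAEL KO (0.31).

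Markers of the cell types that use these keratins also differed, and their part in the keratin differences was not tested. Of 18 hepatocyte markers 17 were tested, and 7 were higher and 0 lower past the threshold, against 2.16% and 5.64% of all tested genes, with a median of 1.79. ALB, G6PC and HP had the highest values, at 7.36, 6.16 and 4.44, and CPS1 the lowest at -0.27, before TAT at 0.06 and CYP2E1 at 0.11. HP was at the floor in MAEL WT, with 1 count against 38 in MAEL KO (95% interval 2.89 to 10.80). HP and PCK1, the latter with 7 counts against 54, passed the filter on counts through MAEL KO alone. For hepatocyte markers with at least 100 counts in 1 library, 5 were higher and 0 lower, with a median of 1.41. The list was chosen with earlier results of these data known, so nothing is read from its contrast with all genes. The summed FPKM of this list was 2182 in MAEL WT and 5449 in MAEL KO, and CYP3A4, with 0 and 2 counts, was the only member not tested. Of 18 biliary markers other than keratins 15 were tested, and 2 were lower and 1 higher past the threshold, against 5.64% and 2.16% of all tested genes, with a median of -0.92. They were 4 lower and 0 higher with total counts, 0 lower with 5 added, and 0 lower with a median of -0.07 for genes with at least 100 counts. EPCAM went from 15 counts to 0 and CLDN10 from 27 to 5 (-2.03), with SCTR at -1.91. ANXA4 at 2.22 and CD24 at 1.58 went the other way. SOX9, the duct cell transcription factor, had 161 counts and 73 (-0.92, 95% interval -1.35 to -0.52). The summed biliary FPKM was higher in MAEL KO, 362.6 against 180.1, so the sum and the median differ in direction. CD24 alone went from 77.9 FPKM in MAEL WT to 232.3 in MAEL KO, which makes up most of that rise.

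Other genes of the hair shaft and the epidermis were mostly near or below detection. Of 18 on that list 6 were tested, 0 passed the threshold, against 5.64% lower and 2.16% higher of all tested genes, and the median was -0.49. HOXC13, the transcription factor known to drive hair keratin genes in the follicle, had 562 counts in MAEL WT and 241 in MAEL KO, a log2 fold change of -1.01 (95% interval -1.23 to -0.79). GATA3 was at -1.21 and TGM1 at -0.77. SFN was at 0.60, TGM3 at 0.13 and LEF1 at -0.21. TP63, which marks basal epidermal cells, had 6 counts and 0, and TCHH, FLG and LOR had 2 counts and 0 each.

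**Figure D4:**
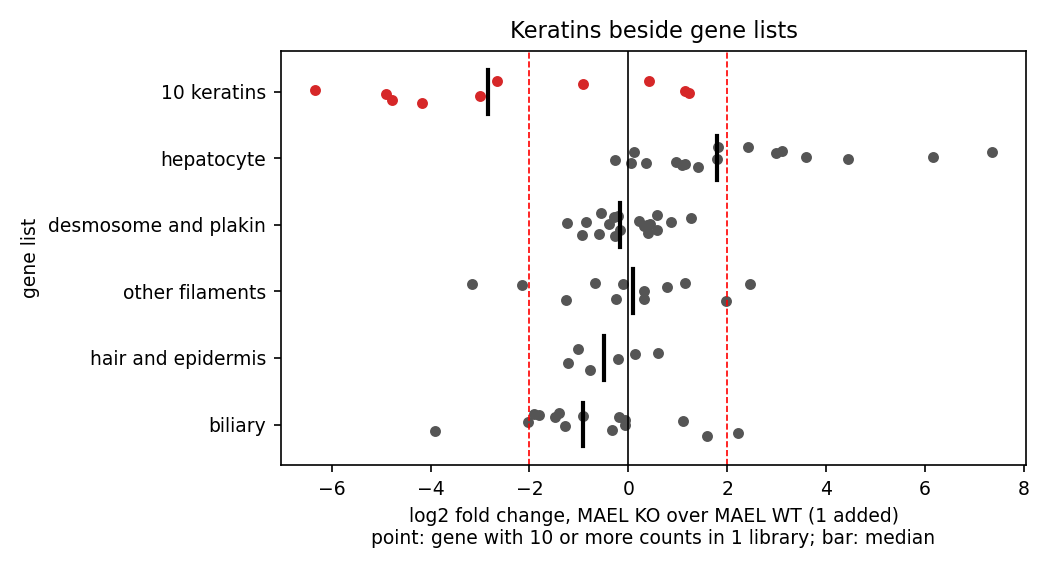
Log2 fold change of MAEL KO over MAEL WT (1 added) for the 10 keratins and for the tested genes of 5 lists, each point a gene and each bar a median, with dashed lines at -2 and 2. The hepatocyte median is at 1.79 and the biliary one at -0.92, and the desmosome list stays between the dashed lines.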

How the data were processed

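RNA of 1 MAEL WT and 1 MAEL KO culture was sequenced. Per the labels, the authors aligned reads with HISAT2 2.0.5 and counted them with featureCounts 1.5.0-p3. The labels name hg19, but the deposited table lists GRCh38 coordinates, with the same start, end and strand as GENCODE 29 for 58724 of 58735 genes. The deposited counts are raw whole numbers per gene. The deposited FPKM values use the listed gene length and a library size that was 1.10 times the total count in MAEL WT and 0.910 times in MAEL KO.

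Counts were scaled here by TMM in edgeR 4.0.16 (R 4.3.3), and by DESeq2 1.42.0 size factors as an alternative. Intervals came from SciPy 1.17.1 in Python 3.11.15, alignments from Biopython 1.88. Genes needed 10 counts in 1 library. With 1 library per condition no model was tested. Steps were tested on simulated data. The members and lists were chosen with earlier results of these data known. Genes named are the 10 members, tested keratins, MAEL, and up to 3 genes at each end of each list, with a few others chosen after their values were seen. A few genes within this rule are not reported here. Principal transcripts are the shortest of the best APPRIS class, and their sequences are from GENCODE 29.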

Additional observations from a re-analysis of the deposited data

How the results depend on the processing

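All differences rest on 1 library per condition, so leaving out a library was not possible. No paired analysis was possible because the result comes from no test. Of 55 recomputed fold changes of the 10 keratins, 51 stayed within their counting interval, 4 moved and 0 changed sign. With total counts KRT8 was at 0.86, KRT18 at 0.13, KRT10 at -1.20 and the median of the 10 at -3.04, by the shift of all genes. With 5 added KRT19 was at -1.49, which left 5 keratins below -2, KRT80 was at -2.76 and the median at -1.76. The median, -2.83 with TMM and 1 added, was -3.40 with 0.1 added, -3.15 by the FPKM ratio and 0.41 for genes with at least 100 counts, where only KRT81 stayed below -2, making 1 gene, because the 5 others are too scarce. At a log2 threshold of 1, 2 keratins were higher, KRT8 and KRT23, but with total counts KRT23 was at 0.95 and neither passed. With total counts the median of other intermediate filament genes was -0.18, and with at least 100 counts that of all genes was 0.066.

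Shares per principal transcript are of the sum of the 10 keratins, and the others are of all keratin genes. The share of KRT8 and KRT18 in MAEL WT was 86.2% by counts, 72.4% with pseudogenes and 89.5% per principal transcript, and in MAEL KO 96.0%, 89.8% and 96.9%. That of KRT81 and KRT86 in MAEL WT was 1.82% by counts and 1.54% per principal transcript. The ratio of KRT8 to KRT18 in MAEL WT was 1.36 by counts, 1.10 per principal transcript and 1.21 per coding length, and in MAEL KO 2.26, 1.83 and 2.01. The principal transcript and coding lengths, and the ratio by counts, were chosen after seeing the data.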

Other observations

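Keratin pseudogenes gave few counts. Of 147 listed, 42 had any count and 6 had at least 10 in 1 library, 3 higher and 3 lower in MAEL KO. KRT8P12 on chromosome 3 went from 123 counts to 57, a log2 fold change of -0.89 (95% interval -1.38 to -0.43), opposite in direction to KRT8. KRT17P8 on chromosome 12, outside the keratin cluster, went from 41 counts to 6, at -2.39 (95% interval -4.09 to -1.32), while KRT17 had 3 counts and 0.

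The nearest tested protein-coding genes outside the keratin clusters, 3 on each side, were listed after the keratin values were seen. Around the chromosome 12 cluster, GRASP was at 1.43, NR4A1 at 1.07 and ATG101 at -0.75 on one side. On the other side EIF4B was at 0.93, TNS2 at 1.36 and SPRYD3 at 0.00. None of the 6 passed the threshold, against 5.64% lower and 2.16% higher of all tested genes. With 6 genes at those shares, nothing is read from that count. Around the chromosome 17 cluster, CCR7, with 46 counts and 3, was at -3.37, TNS4 at -1.58, SMARCE1 at 0.23, EIF1 at -0.76, HAP1 at -0.38 and JUP at 0.86. TMEM99, which shares 56 exon bases with KRT10, was at -0.16.

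Markers of other cell types differed in level. Of 6 fibroblast markers 3 were tested, with COL1A1 at -2.75, PDGFRB at -1.83 and COL3A1 at 1.52, and DCN and LUM had 3 counts in MAEL WT and 0 in MAEL KO. Of 8 leukocyte and endothelial markers 4 were tested, among them CDH5 at 1.86, and PTPRC had 3 counts and 0. LYZ had 1251 counts in MAEL WT and 737 in MAEL KO (-0.55), and PECAM1 had 348 and 392 (0.38).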
